A study of Mus musculus with 4 samples.

Results

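The genes described here are the YTH family and other readers of N6-methyladenosine (m6A): Ythdf1, Ythdf2, Ythdf3, Ythdc1, Ythdc2, Igf2bp1, Igf2bp2, Igf2bp3, Fmr1 and Hnrnpa2b1. They were taken by name, and all probe sets that the array's annotation gives to 1 of the 10 were used. Of these genes, 8 had a probe set, against 22180 genes in the annotation as a whole, and they were read by 9 probe sets. Ythdf2 and Igf2bp2 were not analysed here. The probe set of Igf2bp1 carries a second symbol, the microRNA gene Mir3063, and is called the Igf2bp1/Mir3063 probe set throughout.

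The cells were 4T1Br, a mouse breast cancer cell line that the sample titles shorten to 4T1 and that derives from 4T1 mammary carcinoma cells. Both groups had received a lentiviral short hairpin and had been selected with puromycin: shControl cells carried a control hairpin and shYTHDF3 cells a hairpin against YTHDF3. Total RNA from each group was read on 2 Affymetrix arrays. The labels give neither the hairpin sequences nor the number of hairpins or clones, and they do not say that the 2 arrays of a group came from separate cultures, so each p-value measures only the spread between these arrays, which may be technical.

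m6A is a methyl mark that a nuclear methyltransferase complex places on adenosines of messenger RNA. Reader proteins recognise the mark and steer the RNA: YTHDF1, YTHDF2 and YTHDF3 are related cytoplasmic proteins with a YTH domain and act on translation and decay, YTHDC1 is a nuclear YTH protein that acts on splicing and export, and YTHDC2 is a YTH-domain helicase best known from germ cells. The IGF2BP proteins bind messenger RNAs and shield them from decay, FMRP (encoded by Fmr1) represses translation, and HNRNPA2B1 acts on nuclear RNA processing. Tumour cells often contain IGF2BP proteins that most adult tissues make little of.

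The Igf2bp1/Mir3063 probe set gave the largest difference among the reader probe sets, and its second name matters for what it read. RefSeq places the Mir3063 hairpin within the span of Igf2bp1 (GRCm38.p6), so both names belong to one stretch of the genome. The mature forms are shown because this probe set was annotated to both genes; bases 2 to 8, the seed with which a microRNA pairs to its targets, are in capitals, and both forms lie on the minus strand.
mmu-miR-3063-5p (chr11:95963347-95963367): uGGAGAUCagguuugcacacu
mmu-miR-3063-3p (chr11:95963304-95963325): uGAGGAAUccugaucucucgcc
The 5p form has 21 bases and the 3p form 22. Neither seed is shared with another of the 1738 mature mouse microRNAs in the RefSeq table, each seed occurring in 1 of them. The probe sequences were not used here, so whether the signal came from Igf2bp1 messenger RNA, from the microRNA precursor or from both cannot be told apart.

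Ythdf3, the hairpin's target, was measured first as a check of the labels. Its probe set (17396178) gave 8.98 and 8.81 (log2) with the control hairpin, against 8.21 and 8.16 with the YTHDF3 hairpin. Both shYTHDF3 arrays lay below both shControl arrays, with 0.60 between the lowest shControl and the highest shYTHDF3 value. The mean fell from 8.89 ± 0.12 to 8.18 ± 0.035 (SD, n = 2 each). The log2 change was -0.71 with a 95% interval from -0.96 to -0.46 (limma adjusted p = 0.0355). On a linear scale the shYTHDF3 level was 61.1% of the shControl level, with an interval from 51.4% to 72.7%. In RNA pooled from many cells, fewer cells with the transcript and less of it per cell cannot be told apart.

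Among the 13056 genes above background, limma called 1.45% lower and 1.28% higher at an adjusted p under 0.05, and 138 genes (1.06%) had a change as low as that of Ythdf3 or lower. Of those 138 genes, 114 were called. The Ythdf3 call was lost when dim probe sets were kept in the test (limma adjusted p = 0.0866), when all 21867 probe sets past the filter were tested (0.188), and without shControl 1 (0.158), shControl 2 (0.177), shYTHDF3 1 (0.141) or shYTHDF3 2 (0.188). Leaving out 1 array moved the change to between -0.79 and -0.63.

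**Figure D1:**
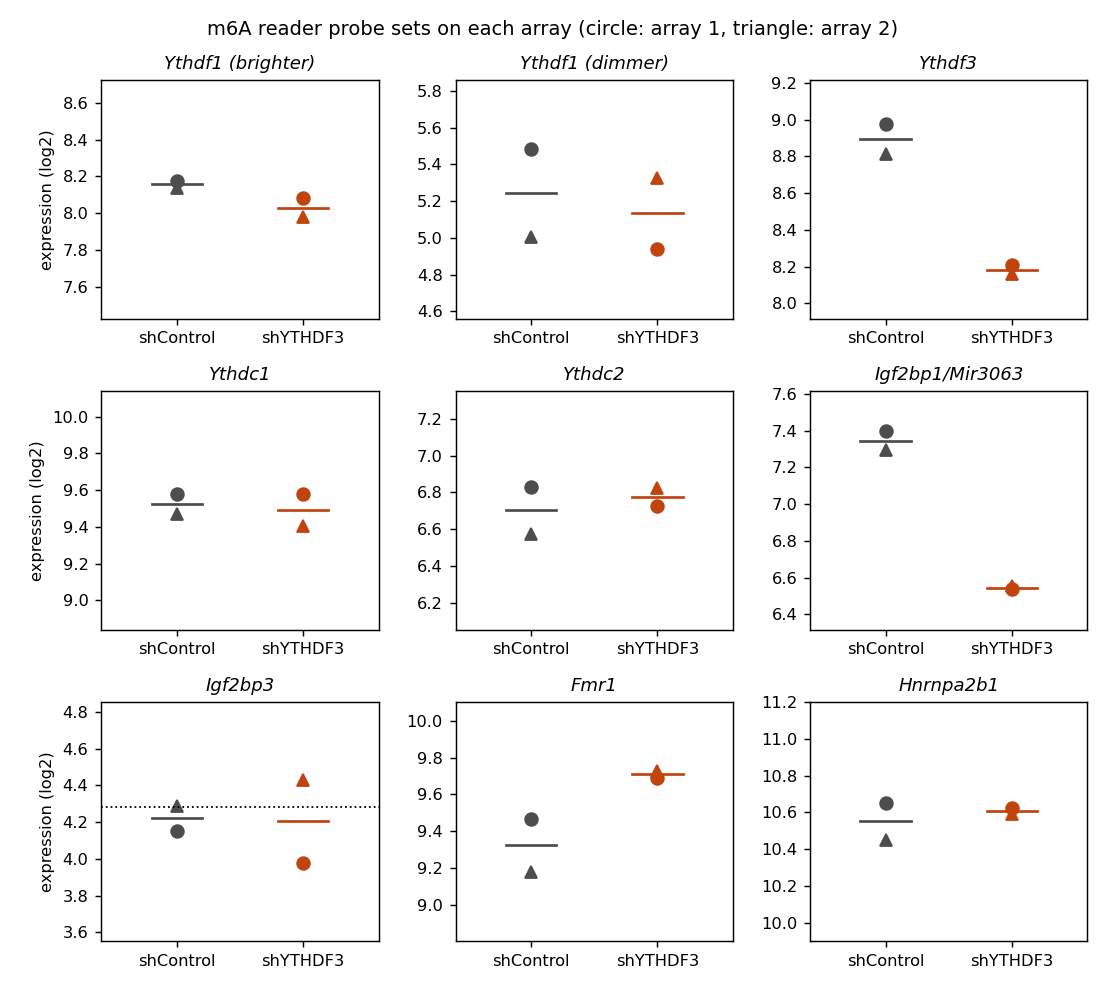
Expression (log2) of the 9 reader probe sets on each of the 4 arrays; circles are arrays numbered 1, triangles arrays numbered 2, short lines group means and the dotted line the background level of 4.28. Every panel spans the same log2 range. Ythdf3, the Igf2bp1/Mir3063 probe set and the brighter Ythdf1 probe set were lower on both shYTHDF3 arrays than on both shControl arrays. Fmr1 was higher on both. Over all genes tested, groups did not overlap in 54.0%.

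Ythdf1, the closest relative of the target that was measured, moved little. Its brighter probe set (17395700) read 8.18 and 8.14 in shControl against 8.08 and 7.98 in shYTHDF3. The groups did not overlap, but the difference of -0.13 (95% interval -0.36 to 0.10) missed the threshold (limma adjusted p = 0.470). Its dimmer probe set (17548188) read 5.48 and 5.01 in shControl against 4.94 and 5.33 in shYTHDF3, with overlapping groups. That probe set differed by -0.11, with an interval from -0.61 to 0.39, and so measured Ythdf1 less precisely than the brighter one.

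The difference between the relatives was tested within each array, as the Ythdf3 value minus the Ythdf1 value of the brighter probe set. The log2 difference between the genes was 0.80 and 0.67 in shControl against 0.13 and 0.18 in shYTHDF3, so the groups did not overlap; these values compare arrays, not the levels of the genes with each other. The change in Ythdf3 minus that in Ythdf1 was -0.58 (95% interval -0.84 to -0.32; limma adjusted p = 0.0328 over all genes set against Ythdf1). In this comparison limma called 1.29% of genes lower and 5.13% higher. Every gene in it shares the error of Ythdf1, and on simulated data the interval was too narrow and the adjustment let through many false calls, so the adjusted p here is not used as a call; it was also 0.0886 with the mean of the Ythdf1 probe sets and 0.0855 without the filter.

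The nuclear reader Ythdc1 read 9.58 and 9.47 in shControl against 9.58 and 9.40 in shYTHDF3. The groups overlapped and differed by -0.033, with an interval from -0.30 to 0.23 (limma adjusted p = 0.892). The sign of so small a difference was not stable: it was 0.0032 after quantile normalization was applied once more, 0.021 without shControl 1 and 0.054 without shYTHDF3 2. Ythdc2, the helicase, read 6.83 and 6.57 in shControl against 6.73 and 6.82 in shYTHDF3. Its groups also overlapped, with a difference of 0.074 and an interval from -0.22 to 0.37 (limma adjusted p = 0.762), and of -0.055 without shControl 2. For both genes the interval excludes a change as large as the -0.71 of Ythdf3, whereas smaller changes in either direction could not be told from 0 with 2 arrays per group.

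The Igf2bp1/Mir3063 probe set (17268255) read 7.40 and 7.29 in shControl against 6.54 and 6.55 in shYTHDF3. Both shYTHDF3 arrays lay well below both shControl arrays, and the mean fell from 7.35 ± 0.073 to 6.55 ± 0.013 (SD, n = 2 each). Since it carries 2 symbols, this probe set was tested together with all genes and the other probe sets of several symbols, 14067 in all, of which limma called 1.35% lower. In that fit its log2 change was -0.80, with an interval from -1.03 to -0.57 (limma adjusted p = 0.0285), and 110 of the 14067, or 0.782%, had a change as low or lower. The shYTHDF3 level was 57.4% of the shControl level, with an interval from 48.9% to 67.5%. The fall was thus of about the size of that of Ythdf3, although no test compared them.

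This call, like that of Ythdf3, depended on what it was tested with. The adjusted p by limma was 0.0330 over all 14727 probe sets with a symbol, 0.0731 over the 1011 probe sets of several symbols alone, 0.0721 without the filter and 0.185 over all 21867 probe sets past the filter. With 1 array left out the change stayed between -0.85 and -0.75 and the adjusted p ran from 0.129 to 0.187, being 0.165 and 0.187 when shControl 1 or shControl 2 was left out and 0.129 and 0.147 when shYTHDF3 1 or shYTHDF3 2 was.

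Igf2bp3, another member of that family, was read at 4.15 and 4.29 in shControl against 3.98 and 4.43 in shYTHDF3. Its mean over the 4 arrays, 4.21, lay under the background level of 4.28, which 95% of the 1108 olfactory receptor probe sets stayed under on average, so it was not tested. The groups overlapped. No change in Igf2bp3 was detectable at this signal.

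**Figure D2:**
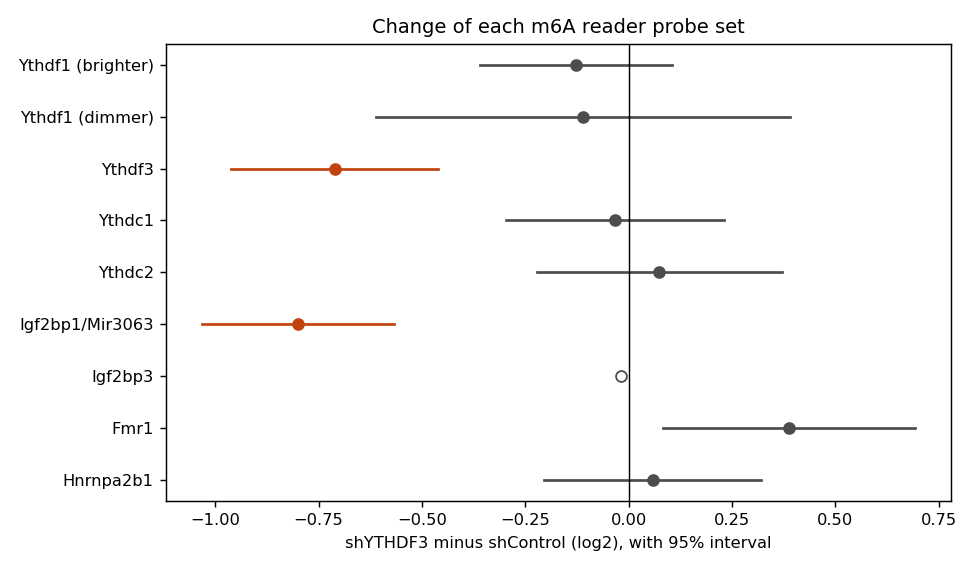
Difference in log2 expression, shYTHDF3 minus shControl, for the 9 reader probe sets, with limma's 95% interval; orange marks those past the threshold and the open circle Igf2bp3, which was under background and not tested. The intervals of Ythdf3 (-0.96 to -0.46) and of the Igf2bp1/Mir3063 probe set (-1.03 to -0.57) lie wholly below 0 and pass, the latter in its own fit. The interval of Fmr1 lies above 0 but its limma adjusted p was 0.150.

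Fmr1, whose product FMRP is a repressor of translation lost in fragile X syndrome, was the reader with the highest positive difference. It read 9.47 and 9.18 in shControl against 9.69 and 9.73 in shYTHDF3. Both shYTHDF3 arrays lay above both shControl arrays, but the shControl arrays differed from each other by more than those of a typical gene: their SD was 0.21, against a median of 0.089 over the genes tested. The difference was 0.39 with an interval from 0.082 to 0.69, a level of 131% of shControl, and it missed the threshold (limma adjusted p = 0.150). A difference at least as high was seen in 819 genes, or 6.27%. With an intensity trend in limma's variance model Fmr1 passed (adjusted p = 0.0315), but that fit called 5.59% of all genes higher and 5.33% lower. The difference was 0.53 without shControl 1 and 0.24 without shControl 2, so its size rested in part on which shControl array was used.

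Hnrnpa2b1, the nuclear RNA-processing factor, read 10.65 and 10.45 in shControl against 10.62 and 10.59 in shYTHDF3. The groups overlapped, and the difference of 0.058 had an interval from -0.20 to 0.32 (limma adjusted p = 0.793). It was -0.041 without shControl 2.

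Across the readers, then, limma called 1 of the 6 genes tested over all genes, the hairpin's target Ythdf3. The shares over all genes were 1.45% lower and 1.28% higher. Beside it the Igf2bp1/Mir3063 probe set was called in its own fit, in which 1.35% were called lower. The other 5 genes, Ythdf1, Ythdc1, Ythdc2, Fmr1 and Hnrnpa2b1, did not pass. The median change of these 5 genes and Ythdf3 was 0.012, against 0.0057 over all 13056 genes. That median leaves out the Igf2bp1/Mir3063 probe set, which fell by 0.80. Groups did not overlap in 4 of the 9 probe sets, Ythdf1 (brighter), Ythdf3, Igf2bp1/Mir3063 and Fmr1, whereas over all genes tested 54.0% did not overlap (25.7% lower and 28.3% higher), so this count does not set the readers apart.

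**Figure D3:**
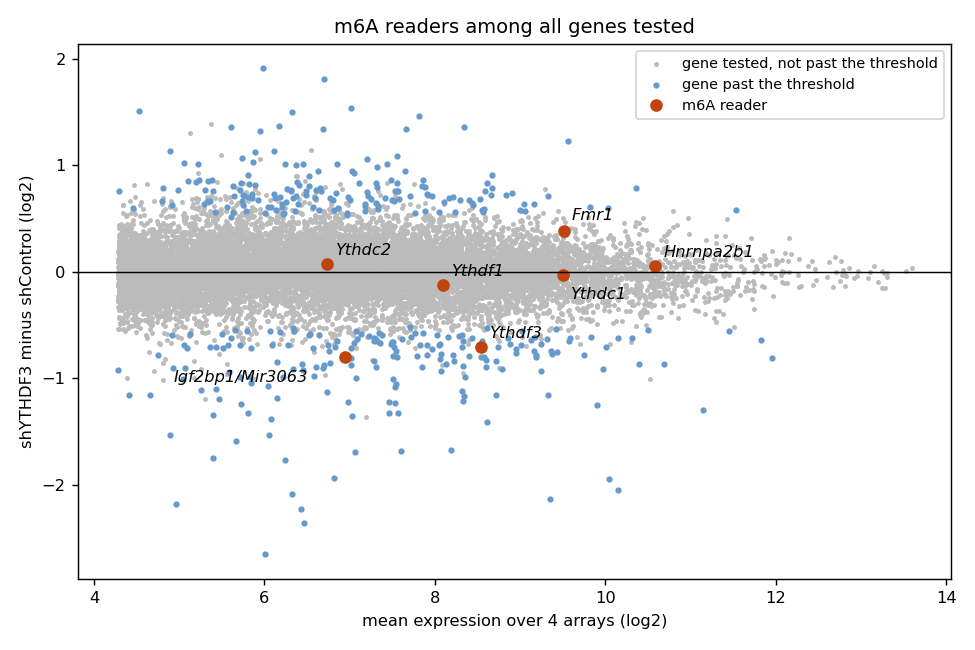
Difference in log2 expression against mean log2 expression over the 4 arrays for the 13056 genes tested (grey; blue where past the threshold), with the readers above background in orange. Ythdf3 (-0.71) lies among the blue points below 0, while Ythdf1, Ythdc1, Ythdc2, Fmr1 and Hnrnpa2b1 lie within the grey ones. The Igf2bp1/Mir3063 probe set (-0.80) also lies there below 0, but it is not among the 13056 genes and was called in its own fit.

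The genes whose values ran most like those of Ythdf3 over the 4 arrays were found by the root mean square distance of values centred on each gene's mean. The 5 nearest were Plcxd2 (distance 0.022), Akap12 (0.029), Epha4 (0.030), Tfrc (0.030) and Trmt6 (0.031). Tfrc, the transferrin receptor that takes up iron, read 10.43 and 10.30 in shControl against 9.72 and 9.59 in shYTHDF3. Akap12, a scaffold for protein kinase A, read 6.50 and 6.37 in shControl against 5.80 and 5.69 in shYTHDF3. Epha4, an ephrin receptor, differed by -0.72, Plcxd2 by -0.69 and Trmt6, a subunit of a transfer RNA methyltransferase, by -0.65. With 4 arrays in 2 groups a pattern of like shape is common. In 1009 genes, or 7.73% of those tested, the Pearson correlation with Ythdf3 was above 0.95, all points sharing the same arrays. Correlation ignores the size of a change, which the distance takes in, and the share of genes within a like distance was not counted.

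The genes around the readers are given by counts, to be read against the shares over all 13056 genes: limma called 1.45% lower and 1.28% higher, and at an unadjusted p under 0.05 10.4% were lower and 12.2% higher. Of 15 enzymes and cofactors that write or remove m6A or a related methyl mark on adenosine, 13 were tested, and limma called 0. At an unadjusted p under 0.05 it found 1 lower and 0 higher. With so low a share called over all genes, a count of 0 in lists of this size does not set them apart. The median change was -0.0084 and the range -0.25 to 0.15; the median was 0.012 with a common array median, 0.0090 without shControl 1, and -0.026 both without shControl 2 and without shYTHDF3 1. Mettl16, a methyltransferase for U6 RNA and the messenger RNA of an S-adenosylmethionine synthetase, differed by -0.25 (limma adjusted p = 0.186). Alkbh5, a demethylase, read 8.39 and 8.51 in shControl against 8.20 and 8.29 in shYTHDF3, a difference of -0.20 (limma adjusted p = 0.289).

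Of 12 other proteins proposed to bind m6A or to sense it, all were tested and limma called 0, against 1.45% lower and 1.28% higher over all genes, with 0 at an unadjusted p under 0.05 as well (10.4% lower and 12.2% higher over all genes). Their median was -0.096, and -0.047 without shControl 1; 6 of the 12 were lower and 2 higher with groups that did not overlap, against 25.7% lower and 28.3% higher over all genes. Prrc2a, a proposed reader in glial cells, differed by 0.21 (limma adjusted p = 0.282), and Eif3b, a subunit of the initiation factor eIF3, by -0.21 (limma adjusted p = 0.259). Fxr1 and Fxr2, the paralogs of Fmr1, differed by -0.13 (limma adjusted p = 0.485) and -0.20 (limma adjusted p = 0.341), against the 0.39 of Fmr1 itself; they were singled out after their values were seen.

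Proteins that readers work with were listed next, chiefly the CCR4-NOT deadenylase, which shortens poly(A) tails and which YTHDF2 is known to recruit. Of 25 listed, 18 were tested and limma called 0; at an unadjusted p under 0.05 it found 3 higher and 1 lower, against 12.2% higher and 10.4% lower over all genes, so the total is near the background. The median change was 0.099, and 0.063 without shControl 2. Cnot6l, a catalytic deadenylase subunit, read 9.02 and 8.95 in shControl against 9.37 and 9.47 in shYTHDF3, a difference of 0.43 (limma adjusted p = 0.0744). Cnot8, another catalytic subunit, went the other way, from 7.73 and 7.72 to 7.29 and 7.38, a difference of -0.39 (limma adjusted p = 0.0849). Neither passed the test. Groups did not overlap in 10 of the 18, 9 being higher and 1 lower. Over all genes 54.0% did not overlap, 28.3% being higher and 25.7% lower. The total is thus about the same share, whereas the split leaned more to higher values, which was not tested.

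Messenger RNAs known to be bound by IGF2BP proteins or by FMRP formed the last list. Of the 9 tested, limma called 2 lower and 0 higher, against 1.45% and 1.28% over all genes. At an unadjusted p under 0.05 it found 4 lower and 1 higher, against 10.4% and 12.2%. The list is short and was chosen with earlier results of these data known, so these counts cannot show that such messenger RNAs changed more often than others. Myc, the transcription factor gene whose messenger RNA IGF2BP1 is known to stabilise, read 10.14 and 10.15 in shControl against 9.35 and 9.36 in shYTHDF3. The arrays of each group were close to one another and the groups far apart: Myc fell by 0.78 on the log2 scale, with an SE of 0.088 (limma adjusted p = 0.0253). Map1b, a microtubule-associated protein gene whose translation FMRP is known to repress, read 10.17 and 10.10 in shControl against 9.51 and 9.53 in shYTHDF3. It fell by 0.61, with an interval from -0.84 to -0.39 (limma adjusted p = 0.0377). The other 7 did not pass. Among them Cd44 differed by -0.51 (limma adjusted p = 0.0799) and Camk2a by -0.46 (limma adjusted p = 0.0620). Hmga2 went the other way, by 0.51 (limma adjusted p = 0.0731). Cd44, Camk2a and Hmga2 were singled out after their values were seen. Groups did not overlap in 5 lower and 2 higher of the 9, against 25.7% lower and 28.3% higher over all genes. The list ran from -0.78 to 0.51 with a median of -0.15, and of -0.36 without shYTHDF3 2. Whether the changes of these messenger RNAs relate to the Igf2bp1/Mir3063 probe set or to Fmr1 was not tested. The Myc and Map1b calls ended under the same alternatives as that of Ythdf3, with limma adjusted p of 0.0667 and 0.0942 without the filter, 0.185 and 0.189 over all probe sets past the filter, and from 0.127 to 0.177 and from 0.162 to 0.197 with 1 array left out, whichever of shControl 1, shControl 2, shYTHDF3 1 and shYTHDF3 2 it was.

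**Figure D4:**
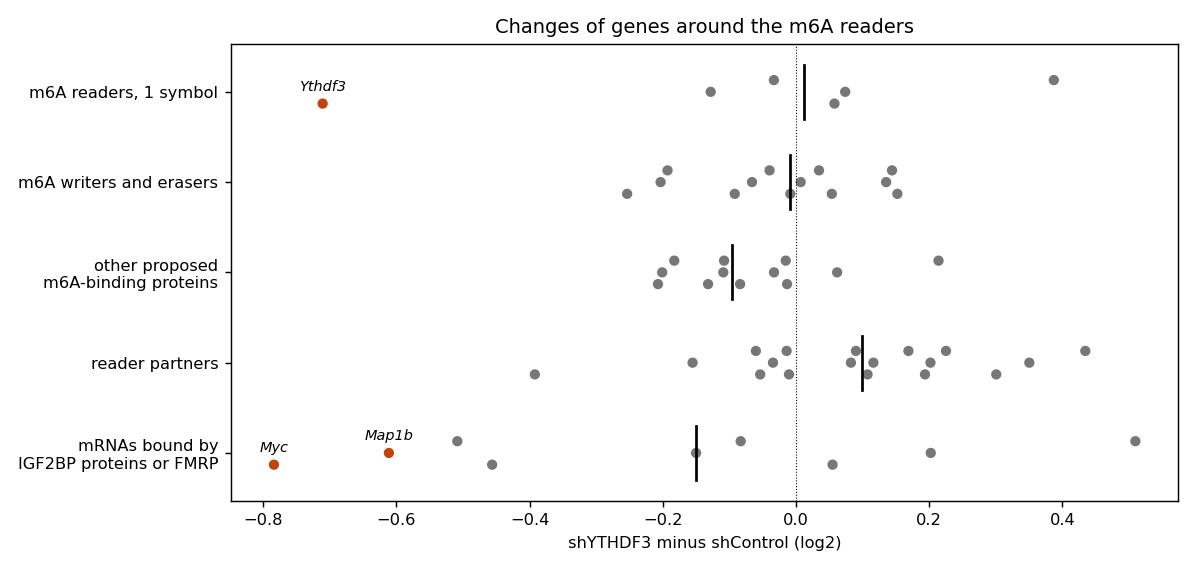
Difference in log2 expression, shYTHDF3 minus shControl, for the tested genes of 5 lists; each point is a gene, orange where past the threshold, and the black bar is the list's median. Ythdf3, Myc and Map1b are the points past the threshold; the medians run from -0.15 for the bound messenger RNAs to 0.099 for the reader partners.

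Array medians over all probe sets ran from 4.42 to 4.47. Of 7 epithelial tumour markers with a probe set, 5 were tested; Krt8 and Krt18 averaged 10.27 and 10.79, whereas Epcam, at 3.93, and Krt14, at 3.87, were under background and Cdh1 was at 4.47. None of the 5 leukocyte markers measured was above background, nor were 3 of 4 endothelial and 4 of 6 neural and glial markers. All 7 fibroblast markers were above it, but unevenly. Pdgfra averaged 9.17, whereas Thy1 was at 4.45 and Col3a1, at 4.283, barely exceeded the background of 4.282. A second probe set of Col1a2, at 2.95, was under it. By limma, Dcn and Pdgfra were called lower. The mean level of the 7 was 5.77 and 5.97 in shControl against 5.32 and 5.36 in shYTHDF3. Most of that shift was Dcn: without it the mean of the other 6 was 5.53 and 5.72 against 5.45 and 5.46. Thy1 differed by -0.44 (limma adjusted p = 0.135) and was not called. Pdgfrb differed by 0.21 in the other direction (limma adjusted p = 0.243). Of the 7 fibroblast markers, 3 were lower and 1 higher with groups that did not overlap, against 25.7% and 28.3% over all genes. The mean level of the epithelial markers was 6.43 and 6.46 in shControl against 6.71 and 6.76 in shYTHDF3, with Krt7 called higher. Without Krt7 the mean of the other 6 was 6.58 and 6.60 against 6.66 and 6.69. Krt18 differed by 0.57 (limma adjusted p = 0.0527) and Krt8 by 0.31 (limma adjusted p = 0.151), neither being called. Krt19 went the other way, by -0.53 (limma adjusted p = 0.0816). The part of these shifts in the results for the readers was not tested.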

How the data were processed

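The deposited values are 1 log2 value per probe set and array, which the authors obtained with RMA, as the submitters' processing notes state; its software was not given in the sources used here. This step equalises the arrays' distributions, so a shift common to most genes would be hidden. The log base was taken as 2 because RMA gives that scale. Arrays have no read depth; having 2 a group is what limits precision.

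Of 41345 probe sets, 1814 had several gene symbols in the annotation, 16010 had none and 23521 had 1, of which 23328 matched RefSeq by Entrez identifier and took its symbol. A gene was represented by its probe set with the highest mean. The 13056 genes above background, the 95th percentile of olfactory receptor probe sets (log2 4.28), were tested with limma 3.58.1 in R 4.3.3 (lmFit, eBayes, two-sided, Benjamini-Hochberg, threshold 0.05); 9124 were left out. Intervals are limma's moderated 95% intervals. Steps were tested on simulated data, in 20 sets with 200 of 13056 genes changed. The test over genes recovered 4.1% of log2 changes of 0.5, 46.3% of 0.75 and 83% of 1. Of its calls, 5.63% were false. A gene that did not pass can therefore still have changed. Figures used matplotlib 3.10.9 in Python 3.11.15.

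All readers were named whatever their values, from each list the genes past the threshold and the 2 of largest absolute change, and the 5 genes nearest to Ythdf3, leaving out unnamed gene models, genes of microRNAs and snoRNAs, and those of antigen, vomeronasal and olfactory receptors. The members and lists were chosen with earlier results of these data known. Alternatives were other filters, variance models, scalings and probe set rules, a replicate block, and each array left out in turn, the lone array then assumed to vary like the other group. Fits that include the Igf2bp1/Mir3063 probe set, and alternatives for Myc and Map1b, were added after seeing the data.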

Additional observations from a re-analysis of the deposited data

How the results depend on the processing

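Leaving out 1 array leaves few degrees of freedom; by limma 0 to 12 genes then passed (356 with all arrays; 1786 to 2607 at an unadjusted p under 0.05) and 0 readers did (1 or 2 at an unadjusted p under 0.05), with changes of -0.79 to -0.63 for Ythdf3, -0.85 to -0.75 for the Igf2bp1/Mir3063 probe set and -0.65 to -0.52 for Ythdf3 minus Ythdf1. Without the filter limma called 43 genes and 0 readers (2 at an unadjusted p under 0.05); over all probe sets past the filter it called 0 and 0 (3337 and 2 at an unadjusted p under 0.05). With an intensity trend it called 1426 genes and 2 readers, Ythdf3 and Fmr1, and with robust estimation as well 1465 and 2. The cause of these shifts was not tested.

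Deviations of arrays with the same replicate number had a correlation of -0.066 over genes. With 2 arrays a group this single value cannot show whether such arrays shared a culture or a batch, and the labels do not say. With the replicate number as a block limma called 51 genes and 0 readers (2638 and 2 at an unadjusted p under 0.05); adjusted p was then 0.0758 for Ythdf3 (change -0.71), 0.0674 for the Igf2bp1/Mir3063 probe set (-0.80) and 0.0542 for Ythdf3 minus Ythdf1 (-0.58). Those changes were equally -0.71, -0.80 and -0.58 without the filter, and the first 2 over all probe sets past the filter, where the adjusted p was above the threshold (that of Ythdf3 minus Ythdf1 is not used as a call under any setting); the probe set's was -0.80 among probe sets of several symbols alone. With the mean of all probe sets Ythdf3 minus Ythdf1 was -0.59. The sign turned for Ythdc1 (0.0032 after quantile normalization once more, 0.021 without shControl 1, 0.054 without shYTHDF3 2), Ythdc2 (-0.055 without shControl 2) and Hnrnpa2b1 (-0.041 without shControl 2). With 1 array left out these genes ran from -0.12 to 0.054, from -0.055 to 0.20 and from -0.041 to 0.16. For Ythdf1 and Fmr1, and for the probe sets that passed, no alternative run turned the sign.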
